A study of Mus musculus with 12 samples.

Results

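*Batf*, *Batf3*, *Atf3*, *Irf1*, *Irf2*, *Irf4* and *Irf8* were followed by RNA-Seq in mouse CD4 T blast cells (TB). These 7 genes, of 24439 gene names in the tables, were taken by name as BATF, ATF3 and interferon regulatory factor (IRF) genes. Some of their proteins bind DNA beside or in place of the JUN and FOS proteins of AP-1. All 7 passed the filter of over 1 TPM in at least 1 library, as did 12442 genes in all. TPM is a length-corrected share of all transcripts.

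All cells came from spleens of C42 mice on a C57BL/6 background, which carry a fragment of the human IL3/CSF2 locus, and all had been turned into dividing blasts by concanavalin A (ConA, 2 µg/ml, 40 h) and then expanded with IL-2 at 50 U/ml (for 2 days by the labels, while the methods give a shorter time before IL-2 was withdrawn, so the 2 days may include the withdrawal). Dead cells were removed where required. TB IL-2 stayed in IL-2. TB IL-2nil was without IL-2 for the last 16 h. TB+ IL-2 and TB+ IL-2nil are these cells after 2 h with 20 ng/ml PMA and 2 µM of the calcium ionophore A23187 (PMA/I), which stand in for T cell receptor signalling without engaging the receptor. Each group has 3 libraries. Ages, and whether libraries of a group came from separate mice, are not given in the sources used here, so P-values measure the spread between these libraries.

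The libraries labelled TB IL-2nil replicate 3 and TB+ IL-2 replicate 3 were each placed in the group of the other label. Of the 12 columns of per-library values published with the study, 10 ranked 1391 genes in the same order as the library of their own label (Spearman rho = 1), and the other 2 did so with the library of the other label. *Il2*, which PMA/I induces, was at 1368 FPKM in the library labelled TB IL-2nil replicate 3 and at 0.290 FPKM in that labelled TB+ IL-2 replicate 3. Placed as published, the 6 stimulated libraries held 1095 to 2374 FPKM of *Il2* and the 6 unstimulated ones 0 to 1.18 FPKM. Results are given for this placement, and also without both libraries and as labelled.

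BATF, BATF3 and ATF3 are basic leucine zipper (bZIP) proteins. BATF and BATF3 have no activation domain of their own, pair with JUN proteins on AP-1 sites and recruit IRF4 or IRF8 to composite AP-1/IRF sites, which is how BATF with IRF4 acts in Th17 and follicular helper cells and BATF3 with IRF8 in dendritic cells. ATF3 is a rapidly inducible relative that binds AP-1 and CRE sites, often as a repressor. IRF4 is induced by antigen receptor signalling in lymphocytes, and like the related IRF8 it binds DNA weakly alone and mostly with a partner. IRF1 is an activator induced by interferon gamma, and IRF2 competes with it for the same interferon response elements.

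The genes lie on 5 chromosomes (mm9, GENCODE M1). *Batf* (ENSMUSG00000034266.5) spans chromosome 12 from 87027619 to 87050037, *Irf1* (ENSMUSG00000018899.9) chromosome 11 from 53583516 to 53591876 and *Irf4* (ENSMUSG00000021356.3) chromosome 13 from 30841095 to 30858796. *Irf2* (ENSMUSG00000031627.7), from 47825099 to 47932812, and *Irf8* (ENSMUSG00000041515.3), from 123260258 to 123280594, share chromosome 8. *Batf3* (ENSMUSG00000026630.4), from 192922293 to 192932822, and *Atf3* (ENSMUSG00000026628.8), from 192994175 to 193007219, lie 61.4 kb apart on chromosome 1 and face each other, with 1 protein-coding gene between. Of the 7, *Atf3* alone is on the minus strand.

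The 250 bases before the annotated start of each gene were read from mm9 and searched on both strands for 9 motifs. The 4 members with a changed level and *Irf1*, whose protein shares its sites with IRF2, are printed 5′ to 3′ on the gene's strand, with matches in capitals.

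Irf8, chr8:123260008-123260257, plus strand: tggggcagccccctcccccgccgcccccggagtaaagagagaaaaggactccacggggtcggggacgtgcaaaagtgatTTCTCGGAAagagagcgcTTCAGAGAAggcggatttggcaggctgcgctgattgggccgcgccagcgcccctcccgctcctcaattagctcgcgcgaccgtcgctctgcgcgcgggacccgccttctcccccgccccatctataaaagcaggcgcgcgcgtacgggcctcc
Irf2, chr8:47824849-47825098, plus strand: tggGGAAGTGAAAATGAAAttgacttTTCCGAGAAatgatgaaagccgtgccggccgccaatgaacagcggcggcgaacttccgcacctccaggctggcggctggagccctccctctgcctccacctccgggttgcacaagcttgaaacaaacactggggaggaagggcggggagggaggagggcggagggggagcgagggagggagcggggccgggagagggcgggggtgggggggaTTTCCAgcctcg
Irf1, chr11:53583266-53583515, plus strand: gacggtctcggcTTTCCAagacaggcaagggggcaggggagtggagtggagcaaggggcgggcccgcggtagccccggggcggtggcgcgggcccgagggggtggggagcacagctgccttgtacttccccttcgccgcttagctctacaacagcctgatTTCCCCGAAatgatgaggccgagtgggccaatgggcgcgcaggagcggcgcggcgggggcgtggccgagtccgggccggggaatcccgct
Irf4, chr13:30840845-30841094, plus strand: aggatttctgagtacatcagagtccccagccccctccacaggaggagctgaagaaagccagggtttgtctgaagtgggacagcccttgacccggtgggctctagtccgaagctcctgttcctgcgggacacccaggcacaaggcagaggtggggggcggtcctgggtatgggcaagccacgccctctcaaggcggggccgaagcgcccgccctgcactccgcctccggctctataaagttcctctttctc
Atf3, chr1:193007220-193007469, minus strand: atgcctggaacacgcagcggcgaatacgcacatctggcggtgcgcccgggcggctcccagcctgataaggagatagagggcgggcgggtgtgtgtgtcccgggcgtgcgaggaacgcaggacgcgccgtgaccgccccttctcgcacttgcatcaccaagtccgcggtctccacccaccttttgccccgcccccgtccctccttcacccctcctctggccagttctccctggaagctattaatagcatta

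The capitals in *Irf8* are 2 GAS elements (TTCNNNGAA, the STAT site) 171 and 153 bases before the start. *Irf1* holds a GAS element at 90 bases and an NFAT core (TGGAAA, here on the other strand) at 238 bases. In *Irf2* the first run of capitals joins an ETS-IRF composite (GGAANNGAAA, at 247 bases) and an interferon response element (ISRE, GAAANNGAAA, at 241 bases), which overlap, and a GAS element follows at 224 bases and an NFAT core at 12 bases. *Batf3* has a GAS element at 239 bases and *Batf* an NF-kB site (GGGANTTTCC) at 225 bases. A GAS element was thus in 4 of the 7 windows, against 6.83% of 22375 windows of protein-coding genes. The shares for the other motifs were 18.1% for the NFAT core, 3.37% for the ISRE, 2.51% for the ETS-IRF composite and 0.371% for NF-kB. AP-1 (TGANTCA, 6% of windows), CRE (TGACGTCA, 1.91%) and the AP-1/IRF composites GAAATGANTCA and TTTCNNNNTGANTCA (0.067% each) matched none of the 7. A match is a run of letters and not a shown site, and other starts and distant enhancers were not searched.

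By group means, the blasts held mostly *Irf1*, *Irf2* and *Batf* before stimulation, and mostly *Irf4*, *Atf3* and *Irf8* after PMA/I. In TB IL-2, however, the mean of *Irf8* (36.2 TPM) was close to those of *Batf* (38.2 TPM) and *Irf2* (42.8 TPM). Depth, read from the steps between low FPKM values, differed up to 3.05-fold between libraries. CD4 T cell markers (6 of 7 in the tables) summed to 1460 to 2618 TPM in the libraries, against 6.91 to 31.9 TPM for CD8 T cell, 2.36 to 30.3 TPM for B cell, 1.02 to 7.50 TPM for dendritic, 1.74 to 4.88 TPM for myeloid and 0 to 0.303 TPM for NK cell markers, with *Ncr1* listed at 0 in all 12. As these are bulk samples, fewer cells with a transcript and less of it per cell cannot be told apart.

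**Figure D1:**
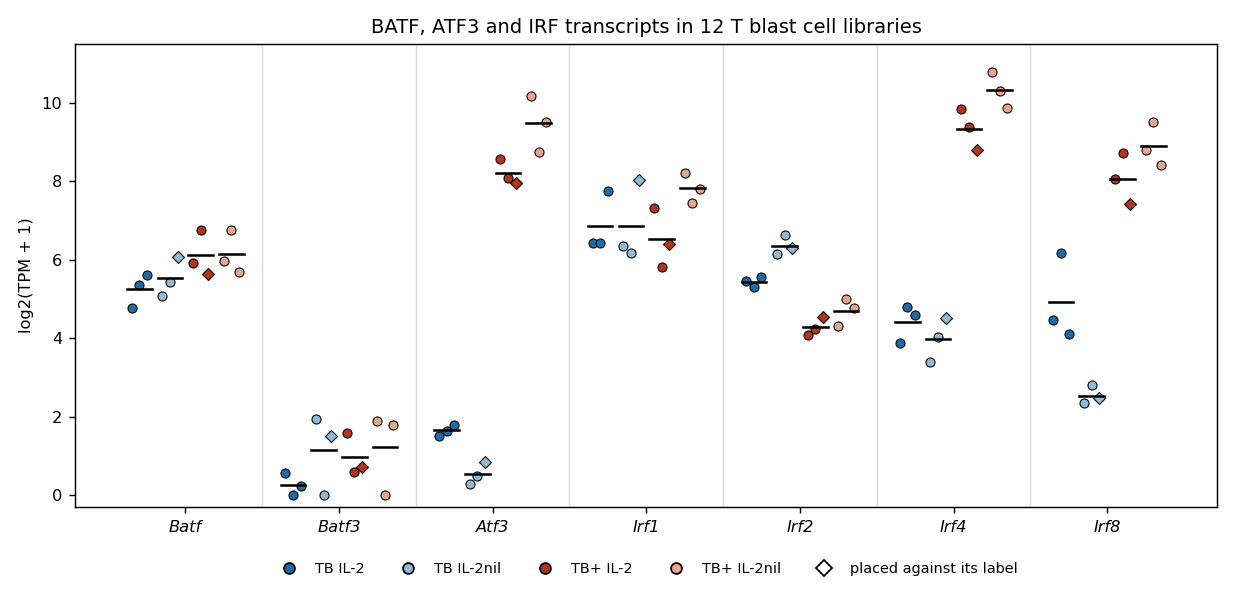
Level of each gene as log2(TPM + 1) in the 12 libraries, by group (3 points each, bar at the mean), with diamonds for the 2 libraries placed against their label. *Atf3*, *Irf4* and *Irf8* stand clear of the unstimulated libraries after PMA/I, *Irf2* lies below them, and *Batf*, *Batf3* and *Irf1* overlap.

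Called genes differed by more than 3-fold on the log2(TPM + 1) scale with an adjusted P under 0.05 (limma, Benjamini-Hochberg over 12442 genes). With IL-2 against without in unstimulated blasts, 1 of the 7 genes was called higher and none lower, where 4.69% of all genes were called higher and 2.73% lower. After PMA/I with IL-2, 3 were called higher and none lower (all genes, 3.94% and 3.10%), and after PMA/I without IL-2, 3 higher and 1 lower (7.78% and 10.7%). Between the stimulated groups none was called (3.21% of all genes higher and 0.410% lower with IL-2), while 1 of the 7 passed the adjusted P alone, with 8.39% of all genes lower with IL-2 by that criterion (12.9% higher). At an unadjusted P under 0.05, 3 of the 7 were lower and none higher, against 16.5% and 18.6% of all genes. At the adjusted P alone, 17.3% of all genes were higher and 22.3% lower with IL-2 in unstimulated blasts, 11.8% and 23.3% after PMA/I with IL-2, and 20.1% and 41.1% after PMA/I without IL-2. The comparisons share groups and are not independent of each other. As labelled, none of the 7 was called in any comparison, and few of the 12442 genes were. The genes called were then 12 with IL-2 in unstimulated blasts and 15 between the stimulated groups. With PMA/I they were 44 with IL-2 and 255 without, and 0 passed the interaction test.

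**Figure D2:**
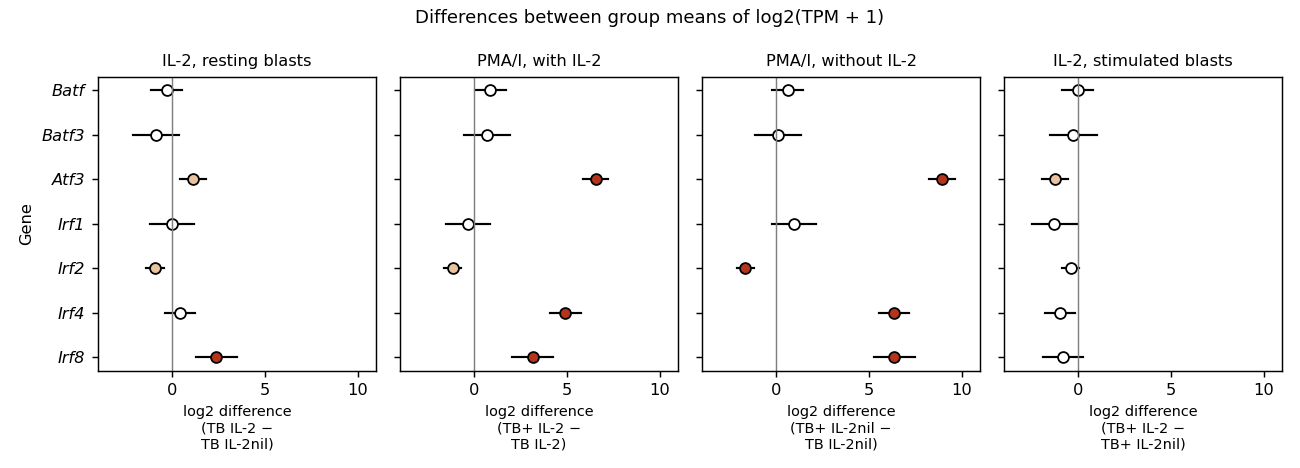
Difference in mean log2(TPM + 1) of each gene in the 4 comparisons, with its 95% confidence interval. Red points are over 3-fold with an adjusted P under 0.05, tan points pass the adjusted P alone and white points neither; the largest difference is that of *Atf3* after PMA/I without IL-2, at 8.94.

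*Irf8* was the member that differed most with IL-2 alone. It stood at 21.2, 70.8 and 16.5 TPM in TB IL-2 replicates 1 to 3 and at 4.09, 5.99 and 4.57 TPM in TB IL-2nil. Every library with IL-2 was above every library without, though TB IL-2 replicate 2 held over 3 times the level of its group's others. The means, 36.2 ± 30.1 and 4.88 ± 0.987 TPM (SD, n = 3), differed 7.40-fold. On the log2(TPM + 1) scale the difference was 2.38 (standard error, SE, 0.50; limma, adjusted P = 0.00386). Without TB IL-2 replicate 2 it was 1.76, or 3.85-fold in mean TPM (adjusted P = 0.00928). Without both libraries in doubt the difference was 2.34 (adjusted P = 0.0143), and as labelled 0.73 (adjusted P = 0.906). IRF8 is also a factor of B cells, whose 5 markers summed to 6.04 to 10.96 TPM in TB IL-2 and 24.3 to 30.3 TPM in TB IL-2nil, the group in which *Irf8* was lower. The 6 dendritic cell markers summed to 1.02 to 1.86 and 2.37 to 3.79 TPM, lower in the group in which *Irf8* was higher. Of these, *Clec9a* was listed at 0 in 11 of the 12 libraries and *Siglech* in 6, while *Xcr1* (0.424 to 1.42 TPM), *Zbtb46*, *Flt3* and *Itgax* were above 0 in all 12.

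PMA/I raised *Irf8* in both settings. With IL-2 it reached 267, 421 and 170.2 TPM in replicates 1 to 3, and without IL-2 445, 723 and 339 TPM. All 6 values lie above all unstimulated ones, and replicate 2 had the highest *Irf8* in each of the 4 groups. With IL-2 the mean rose 7.91-fold to 286 ± 126 TPM (SD, n = 3), which is 3.15 in log2(TPM + 1) (SE 0.50, adjusted P = 0.000849, limma), and without IL-2 102.8-fold to 502 ± 199 TPM (SD, n = 3), or 6.36 (SE 0.50, adjusted P = 3.22e-06, limma). Leaving out TB IL-2 replicate 2, with its high baseline, made the rise with IL-2 15.2-fold (3.77, adjusted P = 0.000142). Without both libraries in doubt these were 3.48 (adjusted P = 0.00243) and 6.32 (adjusted P = 5.6e-05), and as labelled 1.501 (adjusted P = 0.73) and 4.71 (adjusted P = 0.0934). The B cell markers summed to 2.36 to 3.69 TPM in TB+ IL-2 and 5.66 to 13.3 TPM in TB+ IL-2nil, each below the range of its unstimulated counterpart. The dendritic cell markers summed to 2.21 to 2.33 and 4.93 to 7.50 TPM, each above that of its counterpart. This difference was mainly that of *Zbtb46*, with means from 0.413 to 1.12 TPM with IL-2 and from 1.03 to 3.54 TPM without. *Zbtb46* passed the test without IL-2 (adjusted P = 0.00112, limma) but not with it (adjusted P = 0.0746, limma). *Itgax*, with means under 1 TPM, likewise passed without IL-2 (adjusted P = 0.00304, limma) but not with it (adjusted P = 0.392, limma). *Xcr1* and *Flt3* passed in neither setting. *Siglech* and *Clec9a* did not pass the filter and were not tested. The part of these markers in the result was not tested.

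The stimulated level of *Irf8* was lower with IL-2 than without at each of the 3 replicate numbers, but the groups overlapped. The difference was -0.83 (95% confidence interval -1.93 to 0.27, adjusted P = 0.262, limma), and it passed the threshold when the replicate number was added as a block (replicate block, adjusted P = 0.0446). The PMA/I response of *Irf8* with IL-2 was smaller than that without by 3.21 in log2(TPM + 1) (SE 0.71, adjusted P = 0.0336, limma interaction). With *Atf3*, it was 1 of 2 members that passed this test, both in the direction of a smaller response with IL-2, in which 2.66% of all genes passed (1.57% in the other). Without both libraries the interaction of *Irf8* was -2.85 (adjusted P = 0.122), as labelled -3.21 (adjusted P = 0.914), and it held in 9 of 23 alternatives.

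*Irf4* was at 13.7, 26.9 and 23.1 TPM in TB IL-2 and at 9.53, 15.5 and 21.9 TPM in TB IL-2nil. These values overlapped, and the difference with IL-2, 0.44, did not pass the test (95% confidence interval -0.38 to 1.25, adjusted P = 0.371, limma). After PMA/I it was among the most abundant of the 7, at 922, 665 and 442 TPM with IL-2 and 1765, 1257 and 942 TPM without. The stimulated and unstimulated libraries were far apart, and replicate 1 was the highest in both stimulated groups. The mean rose 31.8-fold with IL-2, from 21.2 ± 6.81 to 676 ± 240.4 TPM (SD, n = 3), and 84.4-fold without, from 15.7 ± 6.21 to 1321 ± 415 TPM (SD, n = 3). In log2(TPM + 1) these rises were 4.92 (SE 0.37, adjusted P = 5.66e-06, limma) and 6.33 (SE 0.37, adjusted P = 5.24e-07, limma). Without both libraries they were 5.19 (adjusted P = 2.46e-05) and 6.60 (adjusted P = 6.41e-06), and as labelled 3.49 (adjusted P = 0.334) and 4.91 (adjusted P = 0.0727). *Irf4* was lower in each TB+ IL-2 library than in every TB+ IL-2nil library, by 0.98 on average, a difference that did not pass the test (95% confidence interval -1.80 to -0.16, adjusted P = 0.0833, limma). The interaction of -1.42 did not pass it either (adjusted P = 0.14, limma).

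*Irf2*, the antagonist of IRF1, moved the other way. It was at 42.9, 38.7 and 46.7 TPM in TB IL-2 and at 70.5, 97.8 and 78.5 TPM in TB IL-2nil. After PMA/I it was at 16.0, 18.0 and 22.4 TPM with IL-2 and 18.9, 31.3 and 26.3 TPM without. All libraries without IL-2 were above those with IL-2 before stimulation, and all stimulated libraries were below all unstimulated ones. The mean of 42.8 ± 4.005 TPM with IL-2 was 1.92-fold under the 82.3 ± 14.0 TPM (SD, n = 3) without, a difference of -0.92 (SE 0.21, adjusted P = 0.00575, limma) that is less than 3-fold and just missed the threshold with no scaling (-0.999, adjusted P = 0.0517). PMA/I lowered *Irf2* by 1.16 with IL-2 (2.28-fold in mean TPM, adjusted P = 0.00178, limma) and by 1.67 without (3.23-fold, adjusted P = 5.63e-05, limma). The second of these was the member called lower, and it was not called in 6 of 18 alternatives, of which 5 kept the adjusted P and missed 3-fold, among them those without TB IL-2nil replicate 2 (-1.54) and TB+ IL-2nil replicate 1 (-1.48).

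Without both libraries the 3 differences of *Irf2* were -0.95 (adjusted P = 0.0174), -1.28 (adjusted P = 0.00468) and -1.70 (adjusted P = 0.000451), and as labelled -0.33 (adjusted P = 0.88), -0.57 (adjusted P = 0.734) and -1.08 (adjusted P = 0.242). The median difference over all genes was -0.13, -0.22 and -0.38 in these comparisons. The stimulated groups did not differ beyond their spread (-0.41, adjusted P = 0.192, limma).

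*Irf1* varied widely between libraries of a group. It was at 85.1, 84.8 and 213.5 TPM in TB IL-2 and at 80.3, 71.6 and 262 TPM in TB IL-2nil. Replicate 3 was the highest by over 2-fold in both, and one of these is a library in doubt. The difference with IL-2 was 0.01 (95% confidence interval -1.19 to 1.21, adjusted P = 0.998, limma). After PMA/I *Irf1* was at 159.7, 55.9 and 84.1 TPM with IL-2 and 295, 172 and 224.5 TPM without, so that every library with IL-2 was below every library without. That difference, -1.30 (SE 0.54), did not pass the test (adjusted P = 0.114, limma) and did with the replicate block (adjusted P = 0.0489). The PMA/I differences were -0.34 with IL-2 (adjusted P = 0.659) and 0.97 without (adjusted P = 0.144, limma), the latter 1.55 without both libraries (adjusted P = 0.0274), and their interaction was -1.31 (adjusted P = 0.335).

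*Atf3* was nearly silent before stimulation and the most strongly induced of the 7. It was at 1.88, 2.15 and 2.46 TPM in TB IL-2 and at 0.214, 0.413 and 0.791 TPM in TB IL-2nil, so that the groups did not overlap. PMA/I brought it to 379, 273 and 249.9 TPM with IL-2 and to 1155, 431 and 723 TPM without. These stimulated groups did not overlap each other or the unstimulated ones. The mean rose 139-fold with IL-2, from 2.16 ± 0.289 to 300.5 ± 68.6 TPM (SD, n = 3), which is 6.56 in log2(TPM + 1) (SE 0.31, adjusted P = 1.92e-07, limma). Without IL-2 it rose from 0.472 ± 0.293 to 769.8 ± 364 TPM (SD, n = 3), or 8.94 (SE 0.31, adjusted P = 1.58e-08, limma). Both were as large without the libraries in doubt, at 6.67 (adjusted P = 7.13e-06) and 9.07 (adjusted P = 1.08e-06), and as labelled were 4.18 (adjusted P = 0.432) and 6.56 (adjusted P = 0.0866).

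The IL-2 differences of *Atf3* had opposite signs before and after stimulation. Before it, the mean was 4.58-fold higher with IL-2, a difference of 1.12 (SE 0.31, adjusted P = 0.0155, limma), in values so low that the added 1 TPM shrinks it. After PMA/I it was 2.56-fold lower with IL-2, a difference of -1.26 (SE 0.31, adjusted P = 0.016, limma). Neither reached 3-fold on this scale. The first was 1.26 without both libraries (adjusted P = 0.0261) and -1.26 as labelled (adjusted P = 0.87), and the second was lost without both libraries (-1.14, adjusted P = 0.0767), as labelled (-3.64, adjusted P = 0.437) and in 8 of 18 alternatives in all. Both rested on single libraries for passing the adjusted P. The first no longer passed with a pseudocount of 5 TPM (0.39, adjusted P = 0.305), without TB IL-2 replicate 3 (adjusted P = 0.0529) or without TB IL-2nil replicate 1 (adjusted P = 0.058), and the second without TB+ IL-2 replicate 2 (adjusted P = 0.052) or 3 (adjusted P = 0.0654) or TB+ IL-2nil replicate 1 (adjusted P = 0.0537, limma). The interaction was -2.38 (SE 0.44, adjusted P = 0.0226, limma), and -2.40 without both libraries (adjusted P = 0.0808), -2.38 as labelled (adjusted P = 0.915), and it held in 15 of 23 alternatives.

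*Batf*, the BATF family member of these cells, was present throughout. It was at 26.2, 40.1 and 48.4 TPM in TB IL-2 and at 33.0, 42.3 and 66.3 TPM in TB IL-2nil. After PMA/I it was at 59.5, 108 and 49.3 TPM with IL-2 and 62.0, 108 and 50.9 TPM without, with replicate 2 the highest in both. With IL-2 the stimulated libraries lay just above the unstimulated ones (49.3 TPM for the lowest against 48.4 TPM for the highest), and without IL-2 they overlapped. The PMA/I differences of 0.86 with IL-2 (95% confidence interval 0.03 to 1.69, adjusted P = 0.0998) and 0.61 without (-0.22 to 1.45, adjusted P = 0.179) did not pass the test (limma). The latter depended on the scaling, at 1.01 with median-ratio scaling, which passed (adjusted P = 0.0453), and 0.068 with none (adjusted P = 0.883). IL-2 differences were -0.28 before stimulation (-1.11 to 0.55, adjusted P = 0.584) and -0.03 after (-0.86 to 0.80, adjusted P = 0.967), and the latter changed sign under 6 of 18 alternatives.

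*Batf3* was near the limit of the filter. It was at 0.492, 0 and 0.192 TPM in TB IL-2, at 2.86, 0 and 1.88 TPM in TB IL-2nil, at 2.00, 0.517 and 0.651 TPM in TB+ IL-2 and at 2.75, 0 and 2.50 TPM in TB+ IL-2nil. Replicate 2 was the lowest in all 4 groups and listed at 0 in 3 of them. No comparison passed the test (adjusted P = 0.237 for IL-2 in unstimulated blasts and 0.371, 0.913 and 0.778 in the others, limma), except that the first, -0.88, did with the replicate block (adjusted P = 0.0473). Its induced neighbour *Atf3* and the gene itself thus stood at very different levels in the stimulated libraries.

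In the order of group means, *Atf3* had 4 levels that each differed from the next (TB IL-2nil, TB IL-2, TB+ IL-2, TB+ IL-2nil, from lowest). *Irf8* followed the same order with the upper 2 groups not separated, and *Irf4* with neither the lower nor the upper 2 separated. *Irf2* ran from TB+ IL-2 and TB+ IL-2nil, which were not separated, through TB IL-2 (TB+ IL-2nil against TB IL-2 -0.75, adjusted P = 0.00997, limma) to TB IL-2nil. No neighbours differed for *Batf* (lowest adjusted P = 0.203, TB+ IL-2 against TB IL-2nil) or *Irf1* (lowest adjusted P = 0.144, TB+ IL-2nil against TB IL-2nil).

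Within a library, the makeup of the IRF transcripts turned over with PMA/I. *Irf4* made up 5.79% to 12.2% of the summed TPM of *Irf1*, *Irf2*, *Irf4* and *Irf8* in the unstimulated libraries and 57.3% to 69.9% in the stimulated ones. *Irf2* went from 15.6% to 51.2% down to 0.748% to 3.12%, and *Irf1* from 37.5% to 71.4% down to 4.82% to 14.7%. These ranges do not overlap for any of the 3 genes. *Irf8* made up 5.49% to 32.0% in TB IL-2 and 1.25% to 3.14% in TB IL-2nil, then 17.6% to 36.3% in all stimulated libraries. The summed level itself was 163 to 367 TPM before PMA/I, 719 to 1365 TPM after it with IL-2 and 1531 to 2523 TPM without.

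**Figure D3:**
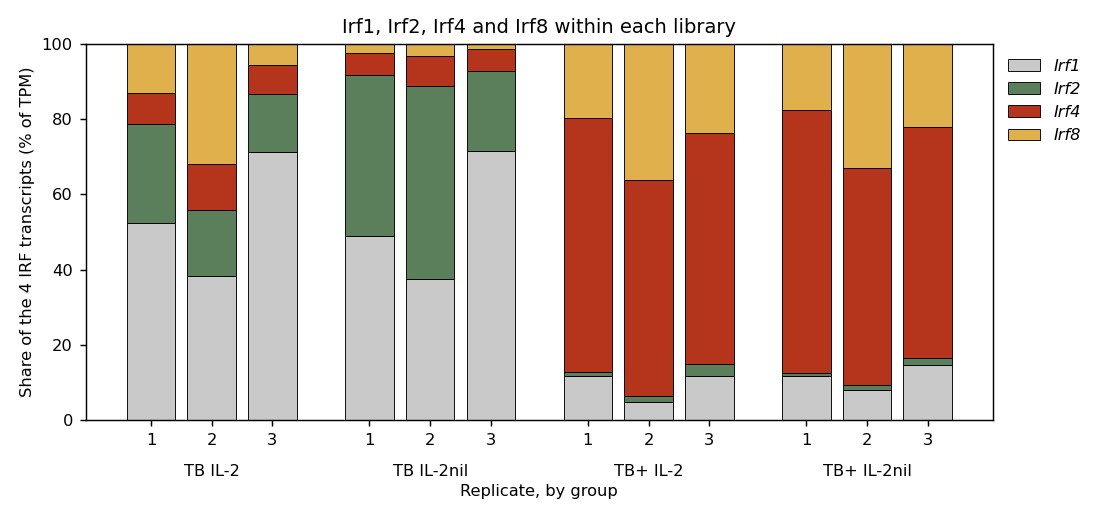
Share of *Irf1*, *Irf2*, *Irf4* and *Irf8* in the summed TPM of the 4 genes (y axis, percent) in each of 12 libraries (x axis, replicate numbers by group). *Irf4* fills 57.3% to 69.9% of each stimulated library and at most 12.2% of each unstimulated one.

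The ratio of *Irf4* to *Irf8*, the IRFs that share partners, was 0.380 to 1.404 in TB IL-2, 2.33 to 4.80 in TB IL-2nil, 1.58 to 3.45 in TB+ IL-2 and 1.74 to 3.97 in TB+ IL-2nil. TB IL-2 was thus the group whose 3 libraries all lay below those of every other group. Among the bZIP members, *Atf3* made up 4.81% to 6.58% of the summed TPM of *Batf*, *Batf3* and *Atf3* in TB IL-2, 0.592% to 1.15% in TB IL-2nil, 71.6% to 86.0% in TB+ IL-2 and 80.0% to 94.7% in TB+ IL-2nil. *Batf* exceeded *Atf3* by 13.9-fold to 154.5-fold in each unstimulated library, and the ratio of *Batf* to *Atf3* was 0.0537 to 0.395 in the stimulated ones.

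Over the 12 libraries, Pearson r of log2(TPM + 1) was 0.992 for *Atf3* with *Irf4*, 0.941 for *Atf3* with *Irf8* and 0.940 for *Irf4* with *Irf8*, and -0.904 for *Irf2* with *Irf8*. *Batf* correlated with these less (0.612 with *Atf3*, 0.686 with *Irf4*). The libraries fall into stimulated and unstimulated ones, so these values mainly describe that step. Of 7231 other genes with a mean over 10 TPM, those closest to *Atf3* were *Ehd1* (0.997), *Slamf1* (0.996) and *Il10* (0.995), and those closest to *Irf4* were *Slamf1* (0.996), *Mapk6* (0.994) and *Ehd1* (0.993). *Tnfrsf4* (0.991), which encodes the costimulatory receptor OX40, *Ddx21* (0.990) and *Cdv3* (0.989) ran closest to *Irf8*, and *Mark4* (0.990) and *Fam32a* (0.977) were among the 3 closest to *Irf2*. The other members had no gene as close: *Serpinb6b* (0.920), *Ece1* (0.901) and *Myo10* (0.897) for *Batf*, *Srsf5* (0.841), *Gm12657* (0.828) and *Rexo1* (0.805) for *Irf1*, and *H2-Q5* (0.856), *Rplp2-ps1* (0.848) and *Ubr4* (0.824, of 7232 genes) for *Batf3*.

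The JUN and FOS genes, whose proteins are the dimer partners and rivals of BATF and ATF3, rose with PMA/I. Of 7 tested, 6 were called higher with IL-2 (median 3.30, all genes -0.22) and 7 without (median 4.45, all genes -0.38), and none lower; both medians are the value of *Fosl1*. *Fosb* rose by 6.04 (adjusted P = 0.00118) and *Fos* by 4.31 (adjusted P = 0.00441) with IL-2, and by 7.30 (adjusted P = 0.00011) and 7.80 (adjusted P = 3.57e-05) without (limma). *Fosl2* rose by 3.32 and 4.61, and *Fosl1*, whose difference depends on the added 1 TPM because it was listed at 0 in all 6 unstimulated libraries, was at 6.27 to 12.1 TPM in TB+ IL-2 and 17.3 to 28.8 TPM in TB+ IL-2nil. With IL-2 alone 1 of 7 was called, *Fos*, at 2.73 (SE 0.92, adjusted P = 0.0348, limma). Its groups overlapped, at 2.84 to 55.3 TPM in TB IL-2 and 0.194 to 4.93 TPM in TB IL-2nil. *Jund*, named after its value was seen, rose by less than 3-fold (1.23, adjusted P = 0.0139, limma). No JUN or FOS gene was called between the stimulated groups. *Fosl1* alone passed the adjusted P there, lower with IL-2 by less than 3-fold (-1.15, adjusted P = 0.00583, limma).

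The wider ATF and CREB family, bZIP factors that bind CRE sites, moved less. Of 14 genes tested (of 15), 3 were called higher with PMA/I both with and without IL-2, and the medians were 0.11 and 0.32. These were *Atf4*, a factor of the amino acid and stress response (2.17 with IL-2, adjusted P = 0.00024, and 2.52 without, adjusted P = 2.6e-05), *Crem* (2.07, adjusted P = 0.00269, and 2.96, adjusted P = 9.43e-05) and *Creb3l2* (2.01, adjusted P = 0.00139, and 2.19, adjusted P = 0.000275, limma). Without IL-2, 2 were called lower, *Creb3* (-2.33, adjusted P = 6.41e-06) and *Creb1* (-1.73, adjusted P = 3.7e-05, limma), the latter named after its value was seen. *Creb3* was also the 1 gene of the list to pass the interaction test (1.28, adjusted P = 0.0375, limma). *Batf2*, the remaining BATF gene, was at 0 to 1.66 TPM.

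None of the 5 other IRF genes was called in the 4 comparisons of groups. Their medians were -0.27 with IL-2 in unstimulated blasts, -0.41 and -0.32 with PMA/I, and -0.14 between the stimulated groups (limma). The changes among IRF genes over 3-fold were thus those of *Irf4*, *Irf8* and *Irf2*.

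Genes that BATF and IRF4 are known to act on in T cells were followed as a list of 14, of which 13 were tested. With PMA/I, 4 were called higher with IL-2 (median 1.13, all genes -0.22) and 6 without (median 1.32, all genes -0.38). The 4 were the cytokine genes *Il4* (7.23, adjusted P = 1.57e-06), *Il21* (7.01, adjusted P = 7.08e-09), *Il10* (5.45, adjusted P = 1.51e-06) and *Il17a* (adjusted P = 0.000109, limma, and listed at 0 in all TB IL-2 libraries). Without IL-2 *Il4*, *Il21* and *Il10* rose by 7.68, 6.82 and 6.62 and *Il17a* by 2.95 (adjusted P at most 5.14e-06), joined by *Gata3* (2.22) and *Il9* (1.69), which are named after their values were seen. *Il4* reached 1302 to 2958 TPM in TB+ IL-2 and 1336 to 3376 TPM in TB+ IL-2nil, and *Il17a* 2.63 to 4.23 and 4.42 to 9.94 TPM. With IL-2 alone 2 were called lower, *Bcl6* (-2.24, adjusted P = 0.0181), the follicular helper repressor, and the inhibitory receptor gene *Ctla4* (-2.20, adjusted P = 0.0186, limma). *Maf*, named after its value was seen, fell by less than 3-fold (-1.49, adjusted P = 0.0208, limma). None of the 13 was called between the stimulated groups. *Gata3* (-0.94, adjusted P = 0.00353) and *Il17a* (-0.86, adjusted P = 0.0336, limma) were lower with IL-2 there by less than 3-fold. By the adjusted P alone, 8.39% of all genes were lower.

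The interferon gamma pathway, which acts on *Irf1* and *Irf8*, changed in both directions. Of 9 genes tested, 2 were called higher and 2 lower with PMA/I in the presence of IL-2 (median -1.30), and 4 higher and 4 lower without (median -0.98). *Ifng* rose by 8.84 (adjusted P = 3.33e-07) to 1230 to 3803 TPM with IL-2 and by 8.68 (adjusted P = 2.63e-07) to 716 to 1316 TPM without, and *Jak2* by 3.99 (adjusted P = 3.65e-06) and 3.32 (adjusted P = 5.18e-06, limma). The receptor genes *Ifngr1* (-1.88, adjusted P = 0.00536, and -2.32, adjusted P = 0.00061) and *Ifngr2* (-1.64, adjusted P = 0.0419, and -1.81, adjusted P = 0.0156, limma) fell. *Stat2* (-1.87, adjusted P = 0.000183, limma) was called lower without IL-2 and is named after its value was seen.

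The feedback inhibitors *Socs1* and *Socs3*, like *Atf3*, had IL-2 differences of opposite signs before and after PMA/I. For *Socs1* these were 2.03 (adjusted P = 0.00434) and -1.94 (adjusted P = 0.0107), with an interaction of -3.96 (adjusted P = 0.0125, limma). For *Socs3* they were 1.02 (adjusted P = 0.0109) and -1.43 (adjusted P = 0.00384), with an interaction of -2.45 (adjusted P = 0.0122, limma), and 2 of the 9 genes thus passed the interaction test, both lower.

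Of 15 genes that IRF1 is known to activate, 2 guanylate-binding protein genes were called higher with PMA/I. *Gbp3* rose by 3.38 (adjusted P = 5.66e-06) with IL-2 and 3.12 (adjusted P = 4.1e-06) without, and *Gbp2* by 2.46 (adjusted P = 0.00255) and 2.00 (adjusted P = 0.00364, limma). The medians of the list, -0.09 and -0.39, were near those of all genes (-0.22 and -0.38). Between the stimulated groups 1 was called higher with IL-2, the IL-12 receptor gene *Il12rb1*, at 22.5 to 37.2 TPM in TB+ IL-2 and 6.49 to 11.1 TPM in TB+ IL-2nil (1.65, adjusted P = 0.00259, limma). *Psmb8* (1.58, adjusted P = 0.000463), *Psmb9* (1.53, adjusted P = 0.000234) and *Psmb10* (1.44, adjusted P = 0.0101, limma) were higher too, by less than 3-fold. These genes are named after their values were seen. The list median there was 0.39, against -0.04 for all genes. *Irf1* itself had lower values in each TB+ IL-2 library than in every TB+ IL-2nil library, but as above that difference did not pass the test (adjusted P = 0.114, limma).

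**Figure D4:**
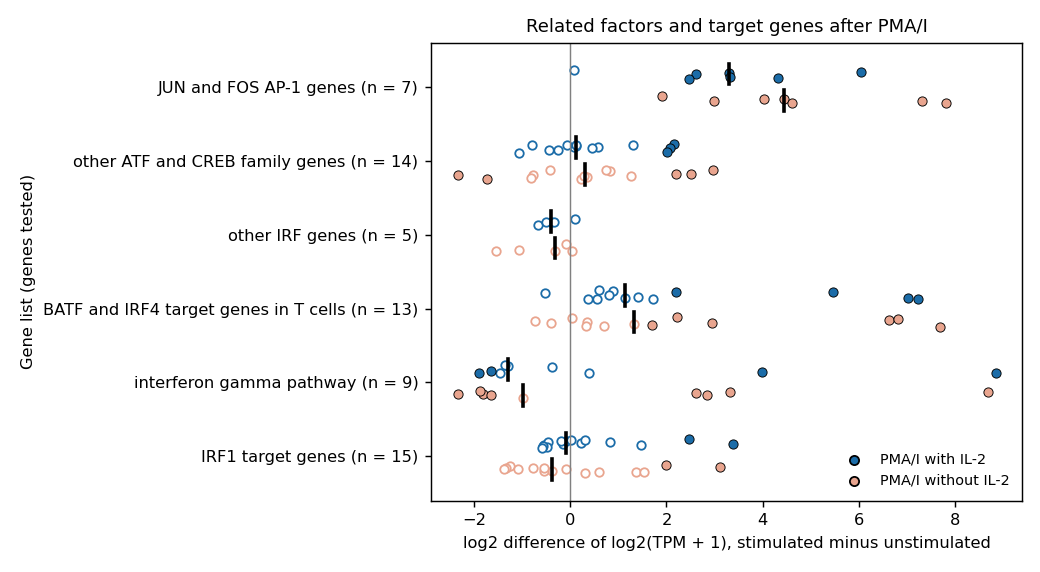
Difference in log2(TPM + 1) with PMA/I for each tested gene of 6 lists (points, filled where over 3-fold with an adjusted P under 0.05; black bars at list medians), with IL-2 in blue and without in pink. The JUN and FOS genes have medians of 3.30 and 4.45, and the other IRF genes of -0.41 and -0.32.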

How the data were processed

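Per the labels and the study's methods, the authors sequenced rRNA-depleted, strand-specific libraries of 12 samples in 4 groups, used Trimmomatic 0.32 for trimming, HISAT2 2.1.0 for alignment (mm9) and StringTie 1.3.3 with RefSeq gene models for quantification. The deposited values are FPKM, without counts, while the methods name TPM. Here FPKM values were rescaled to TPM (sum 1000000 per library), genes that passed 1 TPM anywhere were retained, the 75th percentile was made equal across libraries, and the log2(TPM + 1) values were fitted with limma 3.58.1 (R 4.3.3) over all 12 libraries and 4 groups (8 residual degrees of freedom). The script was tested on simulated data. Added 1 TPM understates changes of low genes. A gene rose or fell where its adjusted P was under 0.05, and was called at over 3-fold as well (the interaction at the adjusted P alone).

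The members and lists were chosen with earlier results of these data known. Named were all 7 members, up to 4 called genes of a list per comparison by size of change, and the 3 genes most like each member. Some genes these rules name are not reported here. Placed as published, libraries of the same replicate number in different groups deviated together (18 correlations, 0.101 to 0.531), the numbers coming from the labels. Libraries of different numbers did so less (36 correlations, -0.416 to 0.171). Group means were subtracted first, so both sets of correlations are tied by arithmetic and the second is no separate evidence. The main tests did not use the replicate number, which entered only in the replicate block. Motifs and positions used Python 3.11.15, numpy 2.4.6, pandas 2.3.3 and scipy 1.17.1, and figures matplotlib 3.10.9. As counts are not given, there are no counting intervals or detection limits. The alternatives were as labelled, without both libraries, a replicate block, other scalings, pseudocounts and filters, a variance trend, only the groups compared and each library left out.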

Additional observations from a re-analysis of the deposited data

Results flagged for a closer look

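*Irf8* and *Atf3* were the 2 members whose response to PMA/I differed with IL-2 by the test of the interaction. The value for *Irf8* was -3.21 (PMA/I raised it by 3.15 with IL-2 and by 6.36 without, adjusted P = 0.0336, limma) and for *Atf3* -2.38 (6.56 with IL-2 and 8.94 without, adjusted P = 0.0226, limma). The stimulated level was lower with IL-2 at 3 of 3 replicate numbers for both genes, and the unstimulated level higher at 3 of 3. With the replicate block the adjusted P was 0.00804 for *Irf8* and 0.0141 for *Atf3*. Leaving out single libraries ended the call of *Atf3* for TB IL-2 replicates 2 and 3, TB IL-2nil replicate 2 and TB+ IL-2 replicates 2 and 3, and that of *Irf8* for TB IL-2 replicate 2, any replicate of TB IL-2nil or TB+ IL-2, and TB+ IL-2nil replicates 1 and 2. Without single libraries the interaction ran from -2.75 to -2.05 for *Atf3* (adjusted P from 0.0207 to 0.0613) and from -3.60 to -2.59 for *Irf8* (adjusted P from 0.0238 to 0.0776, limma). Any cause of the difference was not tested.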

How the results depend on the processing

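Apart from the placement as labelled, the calls of *Irf8* with IL-2 alone and of *Atf3*, *Irf4* and *Irf8* with PMA/I were kept in all of the 17 other alternatives run. As labelled, 0 members were called with IL-2 alone, with PMA/I with or without IL-2 and in the interaction. All genes called there numbered 12, 44, 255 and 0, in that order. Differences as labelled turned to -1.26 (*Atf3*) and -0.99 (*Irf4*) with IL-2 alone, 0.20 (*Irf1*) with PMA/I and IL-2, and 0.11 (*Batf*) and 0.18 (*Irf2*) between the stimulated groups. Members in the interaction fell from 2 to 0 without both libraries and with no scaling, and to 1 with a pseudocount of 0.1 TPM and with no filter. With that pseudocount 2 members were called with IL-2 alone, *Atf3* being added. Leaving out single libraries gave 0 to 2 members in the interaction and 0 to 1 (*Atf3*, without TB+ IL-2nil replicate 2) between the stimulated groups. The genes called in the interaction, 526 in all, numbered 4 without both libraries, 1 with no scaling, 241 and 842 with pseudocounts of 0.1 and 5 TPM, 84 to 1302 without single libraries and 1478 with the replicate block. Pseudocounts of 0.1 and 5 TPM called 1320 and 484 genes with IL-2 alone (923 otherwise), 1470 and 439 with PMA/I and IL-2 (876), 3472 and 1212 with PMA/I without IL-2 (2296), and 691 and 210 between the stimulated groups (451).

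The replicate block put 3 differences past the threshold of the adjusted P (0.0473 for *Batf3* with IL-2 alone, and 0.0489 for *Irf1* and 0.0446 for *Irf8* between the stimulated groups, limma). All 3 were under 3-fold, and it changed no call of a member.

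Small differences changed sign. *Batf* between the stimulated groups was 0.20 without both libraries and 0.36 with no scaling, and -0.36 to 0.28 without single libraries. *Irf1* with IL-2 alone was -0.071 with no scaling, -0.12 with quantile normalization and -0.43 to 0.60 without single libraries, and with PMA/I and IL-2 -0.74 to 0.10. *Batf3* was -0.25 with no scaling and -0.50 to 0.71 without single libraries for PMA/I without IL-2, and 0.13 with a pseudocount of 0.1 TPM and -0.89 to 0.073 without single libraries between the stimulated groups. The interactions of *Batf* and *Batf3* ran from -0.076 to 0.56 and from -0.0043 to 1.19. *Irf1* with PMA/I without IL-2 passed the threshold without TB IL-2nil replicate 3 (adjusted P = 0.0194). Of 665 differences of single members under alternatives, 588 kept direction and side of the threshold. The causes were not tested.

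Other scalings moved the median of all genes with PMA/I without IL-2 from -0.38 to -0.78 (none), -0.08 (median-ratio) and -0.14 (quantile), and that of the interaction from 0.16 to 0.51, 0.04 and 0.06. Without counts, depth sets no stated limit for *Batf3* or for unstimulated *Atf3*.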
